A study of Mus musculus with 6 samples.

Results

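The autophagy machinery is the set of proteins that builds a double-membraned vesicle around cytoplasmic material and delivers it to the lysosome. A set of 39 mouse genes was chosen by name for their roles in this pathway, with earlier results of these data known. The other gene lists used below were chosen with the same knowledge. The set was divided by step into initiation and nucleation (15 genes), conjugation (14), cargo receptors (6) and fusion (4). Probe sets that the platform annotation pairs with a single gene symbol covered 35 of them, out of 12393 genes tested on the arrays. Zfyve1, Atg4a, Optn and Calcoco1 had no such probe set and were not analysed here. Each gene is represented by its lead probe set, the one with the highest mean over the 6 arrays.

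The TFEB-injected group was 3 Ppara KO mice given an adenoviral vector for TFEB, described in the study title as overexpressed only in liver. The not-injected group was 3 Ppara KO mice that received no vector. All 6 mice carried the Ppara knockout on a C57 background and were 1 month old, and each array measured total RNA from the liver of 1 mouse. No empty-vector group was analysed here, so effects of TFEB and effects of adenoviral injection cannot be told apart. Values are log2 expression levels, and every log2 change is TFEB-injected minus not-injected. The calls "rose" and "fell" are kept for genes with a Benjamini-Hochberg adjusted p under 0.05 over all genes in limma, and ± gives the SD of 3 arrays for a level and the SE for a change. Because the arrays were quantile-normalized, they show relative and not absolute RNA amounts.

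In autophagy, the ULK kinase complex starts the process, and a lipid kinase complex built on beclin 1 and VPS34 marks the site where the membrane grows. The marked membrane recruits WIPI proteins and then a pair of ubiquitin-like conjugation systems, which attach LC3 and GABARAP proteins to the membrane. Cargo receptors bind LC3 and GABARAP, and SNARE proteins later fuse the closed vesicle with the lysosome. In liver the pathway is known for supplying amino acids and lipids during fasting. TFEB is known for switching on lysosomal and autophagy genes, through a DNA element centred on CACGTG.

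The Tfeb probe set read 7.63, 7.46 and 7.69 in TFEB-injected livers, against 7.52, 7.63 and 7.51 in not-injected livers. The groups overlapped (log2 change 0.04 ± 0.07; limma adjusted p = 0.777). For Ppara the levels were 9.08, 9.04 and 9.12 in TFEB-injected livers, against 8.98, 8.87 and 9.01 in not-injected livers (log2 change 0.13 ± 0.05; limma adjusted p = 0.149). Since the labels do not give the species of the TFEB transgene or the deleted region of Ppara, these readings are no check of the groups. Hepatocyte markers were bright in all arrays: Alb, the serum albumin gene, averaged 14.95 ± 0.01 in TFEB-injected and 15.02 ± 0.01 in not-injected livers (SD, n = 3 each), and 0 of 7 measured markers passed in limma, with changes between -0.14 and 0.06 (1 at an unadjusted p under 0.05). All 7 markers were among the brightest genes. Quantile normalization makes the maximum equal in every array, but does not fix the level of a single gene below it. Of the 7 changes, 5 were below 0 and 2 above 0, with a median of -0.01. Because the values are relative RNA amounts, whether the hepatocyte share differed between the groups was not tested by these markers. In bulk tissue, fewer cells of a type and less RNA per cell cannot be told apart. Correlations over all genes tested were 0.995 to 0.998 among TFEB-injected arrays and 0.998 to 0.999 among not-injected arrays. Across the 35 genes the SD in the TFEB-injected group was a median of 1.46 times that in the not-injected group, against 1.24 times over all genes.

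Most autophagy genes differed little between the groups. Of the 35 measured, 4 rose (Gabarapl1, Map1lc3b, Wipi1 and Gabarap), 2 fell (Atg16l1 and Atg5) and 29 did not pass. The called share was 17.1%, against 17.9% of all genes tested; 9.99% of all genes rose and 7.92% fell. The share called was therefore close to that of the whole array, and the results concern single genes. Of the 35 genes, 33 lay at or above the median level of all genes. Tested among the 6197 genes at or above that level alone, 30.3% of the 33 passed, against 36.5% of the 6197. The median log2 change of the set was 0.00, against -0.01 over all genes, with 18 genes above 0 and 17 below. Gabarapl1 was the 1 member with a change of more than 0.5 in either direction, a size reached by 4.48% of all genes, and 27 of the 35 moved by less than 0.2. For 28 of the 29 genes that did not pass, the 95% interval of the change, taken gene by gene, lay within 0.5 of 0. The exception was Atg7, with an interval from 0.04 to 0.51.

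**Figure D1:**
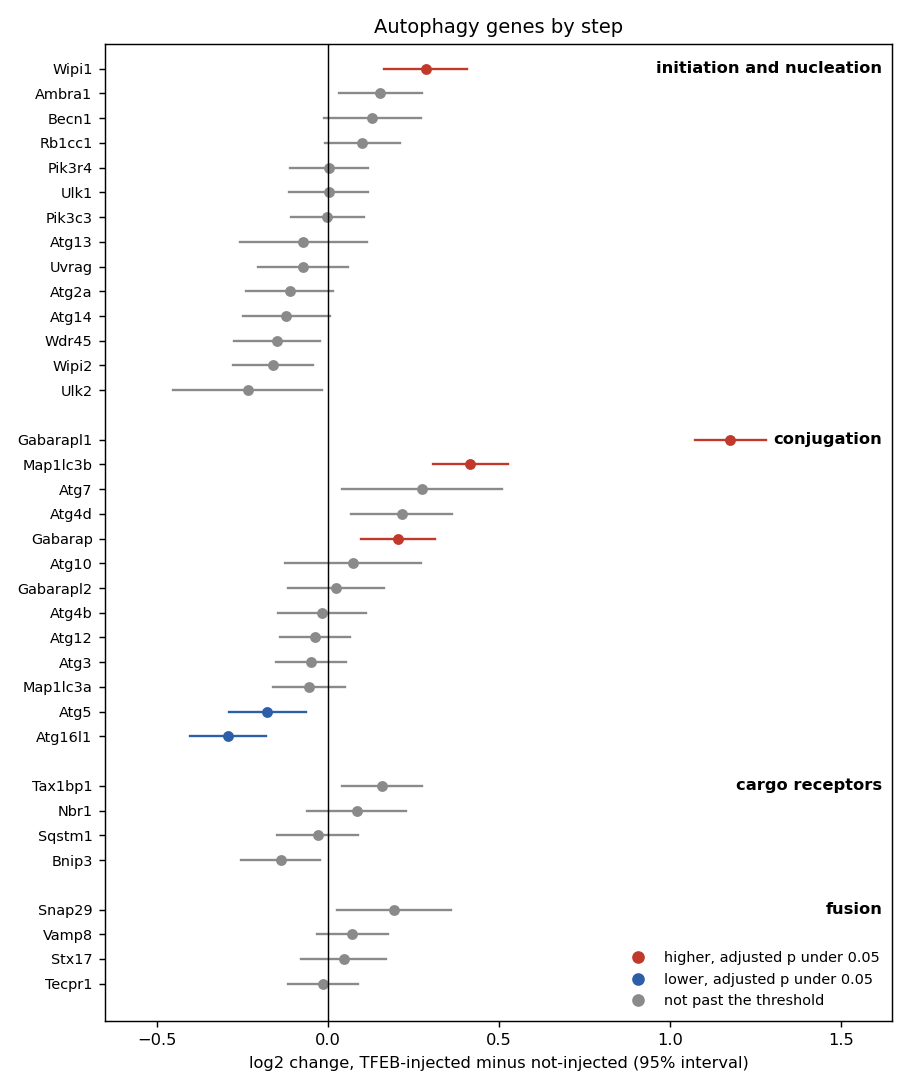
Log2 change (x axis, TFEB-injected minus not-injected) of the 35 measured autophagy genes, grouped by step, with points for the limma estimate and lines for its 95% interval; 3 arrays per group. Gabarapl1 stands alone at 1.18, the other 5 called genes lie between -0.29 and 0.42, and most intervals reach 0 or lie near it.

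The largest rises were in genes that encode LC3 and GABARAP proteins, the ubiquitin-like proteins that are coupled to the growing membrane. Gabarapl1, for a GABARAP family member, read 12.69, 12.73 and 12.70 in TFEB-injected livers, against 11.49, 11.56 and 11.54 in not-injected livers. Every TFEB-injected array lay more than 1 log2 unit above every not-injected one. The gene rose 2.26-fold (log2 change 1.18 ± 0.04; limma adjusted p = 2.17e-05) and ranked 8 by p among all genes tested. A further Gabarapl1 probe set gave 1.25 ± 0.06; the lead one ends in _s_at, a class that can detect related transcripts.

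Map1lc3b, for LC3B, the protein commonly used to mark autophagosomes, read 12.02, 12.06 and 12.10 in TFEB-injected livers, against 11.62, 11.69 and 11.62 in not-injected livers. It rose 1.34-fold (log2 change 0.42 ± 0.05; limma adjusted p = 0.00132), with no overlap between the groups. Of its 3 further probe sets, 2 gave 0.35 ± 0.06 and 0.31 ± 0.05 and also passed, while the dimmest gave -0.06 ± 0.07. Gabarap, the founding member of its family, read 11.99, 12.05 and 12.04 in TFEB-injected livers, against 11.86, 11.79 and 11.81 in not-injected livers. The rise was small, 1.15-fold (log2 change 0.21 ± 0.05; limma adjusted p = 0.0207). Its call was lost without TFEB-injected replicate 2 or without not-injected replicate 1, 2 or 3, with adjusted p of 0.0903, 0.0502, 0.0781 and 0.0665 in that order.

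The remaining measured members of the family did not pass. Gabarapl2 changed by 0.02 (95% interval -0.12 to 0.17) and Map1lc3a, for LC3A, by -0.05 (95% interval -0.16 to 0.05). Within one small family the estimates thus ran from -0.05 to 1.18; differences between family members were not tested.

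The complex that directs LC3 and GABARAP coupling to the membrane is made of ATG12 joined to ATG5 and bound by ATG16L1, and 2 of its 3 genes fell. Atg16l1 read 8.19, 8.10 and 8.18 in TFEB-injected livers, against 8.43, 8.42 and 8.48 in not-injected livers. It fell by 0.29 ± 0.05 on the log2 scale, or 1.22-fold (limma adjusted p = 0.00587), from a single probe set. Atg5 read 9.58, 9.60 and 9.50 in TFEB-injected livers, against 9.77, 9.70 and 9.74 in not-injected livers (log2 change -0.18 ± 0.05; limma adjusted p = 0.0431). Although the groups did not overlap, leaving out each of the 6 arrays in turn ended the Atg5 call every time, with adjusted p between 0.0704 and 0.145. The other Atg5 probe sets gave -0.12 ± 0.05 and -0.07 ± 0.05. Adjusted over all probe sets, neither passed, and the lead one did not pass either (limma adjusted p = 0.0528). Atg12, the third component, changed by -0.04 (95% interval -0.14 to 0.06).

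Among the enzymes of conjugation, 0 of 5 measured passed in limma, and 2 had an unadjusted p under 0.05. Atg7, for the E1-like activating enzyme of both systems, read 8.39, 8.45 and 8.69 in TFEB-injected livers, against 8.29, 8.35 and 8.07 in not-injected livers (log2 change 0.27 ± 0.10; limma adjusted p = 0.107). The groups did not overlap, but this SE was the largest of the 35. Atg4d, for a protease that trims LC3 and GABARAP proteins, changed by 0.22 ± 0.06 and lay just outside the threshold (limma adjusted p = 0.0547). Atg4b, for the main protease of this kind, changed by -0.02. Of the E2-like enzymes, Atg3, which transfers LC3, changed by -0.05, and Atg10, which transfers ATG12, by 0.07. Over the whole conjugation step 3 of 13 measured genes rose (23.1%) and 2 fell (15.4%), with a median change of 0.02. Over all genes tested 9.99% rose and 7.92% fell.

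**Figure D2:**
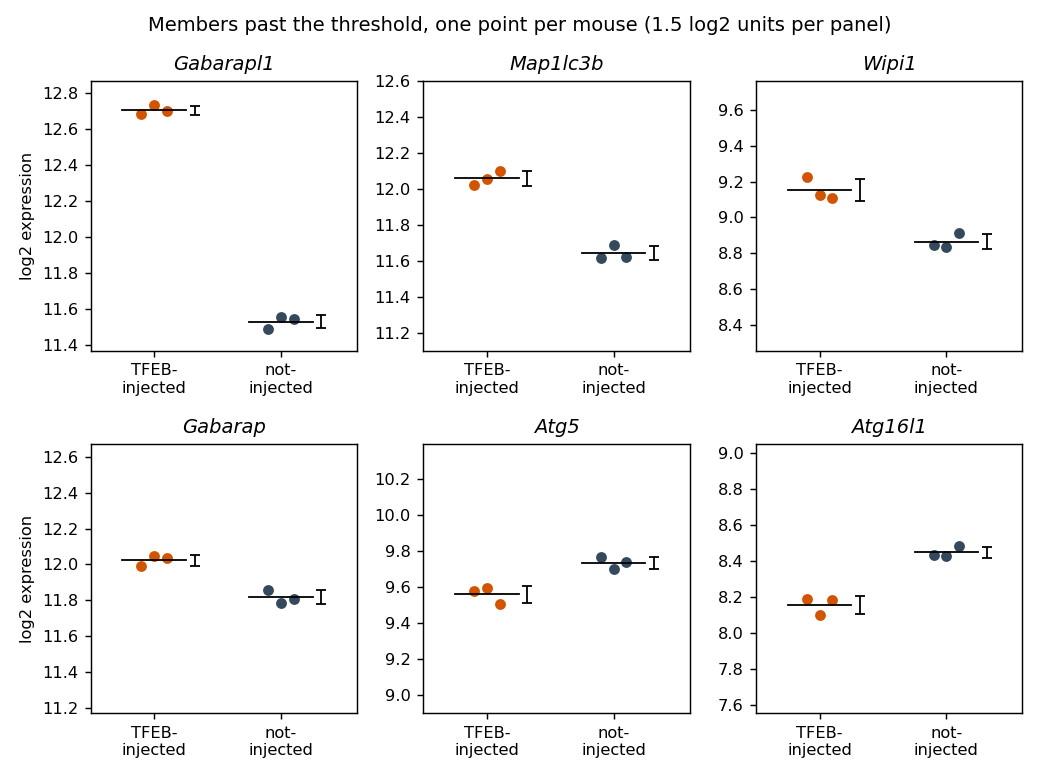
Log2 expression (y axis) of the 6 called autophagy genes in each mouse, TFEB-injected on the left and not-injected on the right of each panel; points are mice, horizontal lines are means and the bars beside them are SDs (n = 3), and every panel spans 1.5 log2 units. The groups are apart in all 6 panels, by far the most for Gabarapl1.

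The bases just upstream of the start of 4 of these genes are printed because CACGTG, the core of the DNA element TFEB is known to bind, can be looked for in them directly. They are the 2 genes with the largest rises, the called gene that holds the motif, and the gene with 2 copies. The sequences are from RefSeq (build GRCm38.p6), are the 250 bases before the start used in its promoter table, read 5′ to 3′ on the gene's strand, and carry CACGTG in capitals.
Gabarapl1 (chr6:129532942-129533191, plus strand): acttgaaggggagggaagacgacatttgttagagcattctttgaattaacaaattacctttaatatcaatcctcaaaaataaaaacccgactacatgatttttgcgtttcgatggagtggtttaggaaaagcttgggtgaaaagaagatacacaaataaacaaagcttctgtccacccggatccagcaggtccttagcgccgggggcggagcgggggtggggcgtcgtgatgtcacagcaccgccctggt
Map1lc3b (chr8:121590188-121590437, plus strand): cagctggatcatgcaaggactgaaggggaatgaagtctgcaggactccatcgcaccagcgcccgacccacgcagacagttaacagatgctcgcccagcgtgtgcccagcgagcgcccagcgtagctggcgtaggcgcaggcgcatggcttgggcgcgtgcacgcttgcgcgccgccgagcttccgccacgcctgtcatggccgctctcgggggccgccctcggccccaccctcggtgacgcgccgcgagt
Atg5 (chr10:44268089-44268338, plus strand): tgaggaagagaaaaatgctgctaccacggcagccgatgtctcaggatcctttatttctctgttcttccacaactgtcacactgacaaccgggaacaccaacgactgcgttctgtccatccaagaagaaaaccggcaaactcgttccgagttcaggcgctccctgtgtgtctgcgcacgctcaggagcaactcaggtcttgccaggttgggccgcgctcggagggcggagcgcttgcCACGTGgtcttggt
Atg3 (chr16:45158579-45158828, plus strand): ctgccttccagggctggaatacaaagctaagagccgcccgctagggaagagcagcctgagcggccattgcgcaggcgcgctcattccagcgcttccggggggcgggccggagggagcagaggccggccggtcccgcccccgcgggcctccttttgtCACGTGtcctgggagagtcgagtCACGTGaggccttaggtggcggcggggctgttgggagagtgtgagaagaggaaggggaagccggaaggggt

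CACGTG, which is its own reverse complement, was not found in the windows of Gabarapl1, Map1lc3b, Gabarap or Wipi1, which run from 250 bases before to 50 bases after the start. It was found in those of Atg3, Atg5, Atg7, Atg14 and Bnip3, so in 5 of the 33 listed genes with a window, 29 of which were measured. Of these 5 genes, Atg5 fell and 4 did not pass. By window, 13.5% of the 37 belonging to listed genes held the motif, against 7.15% of all 32851 windows; the listed genes' windows had a median GC content of 57.2%, against 52.4% of all windows. In Atg5 the motif begins 14 bases before the start used there; the RefSeq gene begins 17 bases further upstream than that start, so the motif lies inside the annotated gene. In Atg3 the copies begin 94 and 71 bases before the start. The longer TCACGTG, which overlaps CACGTG and was searched on both strands, was in the windows of Atg3, Atg7 and Atg14 and in 3.77% of all windows. GTAAACA, a form of the core recognised by FoxO factors, searched on both strands, was in 0 of the 37 windows, against 3.65% of all windows. Other forms of this core, such as the ATAAACA in the Gabarapl1 bases printed above, were not searched for. A match is a description of these letters, and the windows leave out more distant sequence.

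At the initiation and nucleation step, 1 of 14 measured genes rose (7.14%) and 0 fell, against 9.99% and 7.92% of all genes tested. The median change was -0.04. The gene that rose was Wipi1, for a protein that binds the lipid produced by the VPS34 complex. It read 9.22, 9.12 and 9.11 in TFEB-injected livers, against 8.85, 8.84 and 8.91 in not-injected livers. The groups were apart, and the rise was 1.22-fold (log2 change 0.29 ± 0.05; limma adjusted p = 0.00908). Wipi1 had 5 probe sets: a further one gave 0.36 ± 0.09 and passed, and the other 3 gave -0.11, 0.09 and -0.05 without passing. With the mean of all 5 the change was 0.12 and the call was lost (limma adjusted p = 0.155).

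All 3 close relatives of Wipi1 on the arrays had lower estimates in TFEB-injected livers, and 1 of them passed. Wipi2, whose product recruits ATG16L1, read 8.87, 8.77 and 8.74 in TFEB-injected livers, against 8.94, 8.95 and 8.96 in not-injected livers. These groups did not overlap, but the difference missed the threshold (log2 change -0.16 ± 0.05; limma adjusted p = 0.0672), and a dimmer Wipi2 probe set gave 0.13 ± 0.08. Wdr45, for WIPI4, changed by -0.15 ± 0.05 (limma adjusted p = 0.107). Wdr45b, for WIPI3 and outside the 39 genes, read 9.76, 9.72 and 9.62 in TFEB-injected livers, against 10.14, 10.08 and 10.15 in not-injected livers. It fell by 0.42 ± 0.05 on the log2 scale (limma adjusted p = 0.00206). In this family 1 gene thus rose, 1 fell and 2 did not pass; differences between the genes were not tested. Atg2a, for the lipid transfer protein that works with WIPI proteins, changed by -0.11 ± 0.05 (limma adjusted p = 0.212).

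The kinase complexes at the start of the pathway had 0 called members of 10 in limma, of which 2 had an unadjusted p under 0.05. Ulk1, for the kinase that starts autophagy, changed by 0.00 (95% interval -0.11 to 0.12). Its relative Ulk2 read 9.67, 9.61 and 9.30 in TFEB-injected livers, against 9.73, 9.79 and 9.76 in not-injected livers, a change of -0.23 ± 0.09 (limma adjusted p = 0.134) in which TFEB-injected replicate 3 was the lowest. The scaffold genes Atg13 and Rb1cc1 changed by -0.07 and 0.10. In the lipid kinase complex, Pik3c3, for the catalytic subunit VPS34, changed by 0.00, and Pik3r4, for its regulatory subunit, also by 0.00. Becn1, for beclin 1, changed by 0.13 ± 0.06 (limma adjusted p = 0.193), and Ambra1, for a beclin 1 regulator, by 0.15 ± 0.05 (limma adjusted p = 0.0871). Atg14 and Uvrag, whose products define alternative forms of this complex, changed by -0.12 and -0.07.

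Cargo receptor genes gave 0 calls of 4 measured in limma and 2 at an unadjusted p under 0.05, with Bnip3 alone of the 4 at an interval entirely below 0 and Tax1bp1 alone at one entirely above 0. Sqstm1, for p62, the best known receptor for ubiquitin-tagged cargo, read 10.73, 10.71 and 10.61 in TFEB-injected livers, against 10.70, 10.70 and 10.75 in not-injected livers. These groups overlapped, with a change of -0.03 (95% interval -0.15 to 0.09). Nbr1, a related receptor gene, changed by 0.08 ± 0.06. Tax1bp1, for a further ubiquitin-binding receptor, read 10.76, 10.84 and 10.80 in TFEB-injected livers, against 10.62, 10.60 and 10.70 in not-injected livers (log2 change 0.16 ± 0.05; limma adjusted p = 0.0693). Bnip3, for a mitophagy receptor and the member with the brightest probe set, read 12.80, 12.78 and 12.75 in TFEB-injected livers, against 12.90, 12.98 and 12.87 in not-injected livers (log2 change -0.14 ± 0.05; limma adjusted p = 0.0978). Neither pair of groups overlapped.

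Genes for fusion with the lysosome gave 0 calls of 4 in limma and 1 at an unadjusted p under 0.05. Stx17 and Snap29 encode SNARE proteins that sit on the closed autophagosome and pair with the lysosomal VAMP8. Stx17 changed by 0.05 ± 0.05 and Vamp8 by 0.07 ± 0.05. Snap29 read 7.32, 7.35 and 7.36 in TFEB-injected livers, against 6.99, 7.24 and 7.21 in not-injected livers (log2 change 0.19 ± 0.07; limma adjusted p = 0.108). Tecpr1, for a tether between the vesicles, changed by -0.01. Over all 35 genes, 11 had all TFEB-injected arrays above all not-injected arrays and 9 had them below, or 31.4% and 25.7%. Over all genes tested these shares were 18.2% and 18.9%. The shares were not compared with genes of similar level, and 33 of the 35 lay at or above the median level of all genes.

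The choice of probe set mattered for several genes. Of the 35 genes, 20 had more than 1 probe set, with 35 further probe sets in all. Of these, 9 had the opposite sign to the lead one, and 0 of the 9 passed in limma, adjusted over all probe sets or at an unadjusted p under 0.05. In 5 genes that were not called, a further probe set passed; they are named after their values were seen. Atg7 gave 0.47 ± 0.08 and Snap29 gave 0.36 ± 0.07, while Ulk2 gave -0.33 ± 0.08, Atg13 gave -0.24 ± 0.06 and Atg3 gave -0.23 ± 0.05, each in the same direction as its lead probe set.

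**Figure D3:**
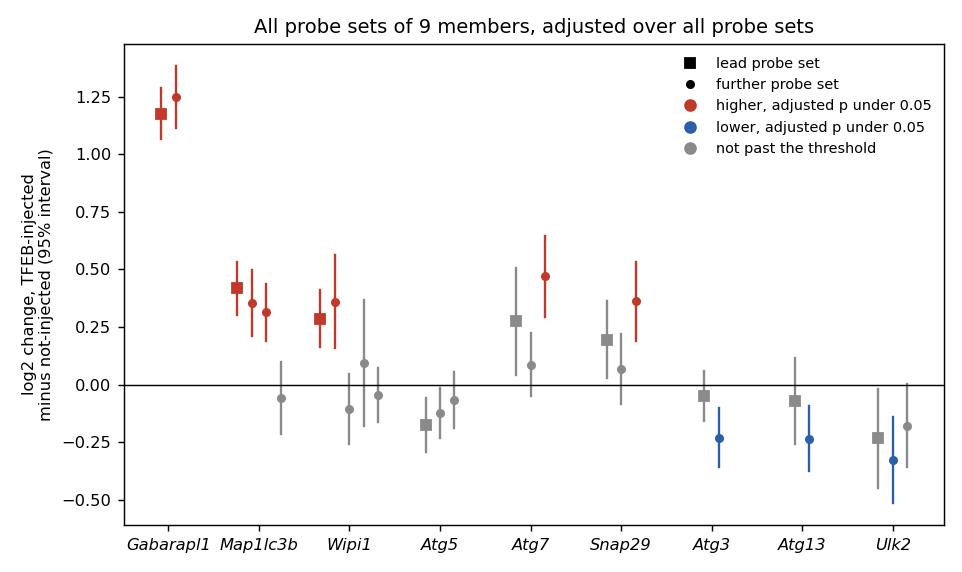
Log2 change (y axis, TFEB-injected minus not-injected, 95% interval) of every probe set of 9 autophagy genes, squares for lead and circles for further probe sets; colours show calls adjusted over all probe sets. Both Gabarapl1 probe sets lie above 1, while those of Map1lc3b and Wipi1 divide between called rises and values near 0.

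Genes reported in cultured cells as autophagy targets of TFEB, and genes reported in muscle as autophagy targets of FoxO3, were set beside these results. Of 7 TFEB targets, Map1lc3b and Wipi1 rose (28.6%) and 0 fell, against 9.99% and 7.92% of all genes tested. In lists this short a share rests on very few genes, and the Wipi1 call was lost with the mean of its probe sets. The other 5 did not pass: Sqstm1 (-0.03), Uvrag (-0.07), Vps11 (0.14 ± 0.05), Vps18 (0.01) and the dim Atg9b (0.01). The median was 0.01, against -0.01 over all genes. Of 8 measured FoxO3 targets, Gabarapl1 and Map1lc3b rose (25%) and 0 fell, with a median of -0.01. Map1lc3b is in both lists.

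Outside the 39 genes, 48 further genes of the pathway and its regulation were listed, and 36 were measured. Of these 7 rose and 3 fell, or 27.8%, against 17.9% of all genes tested, with a median change of 0.04. Most of the 36 lay above the median level of all genes. Tested among genes at or above that level alone, 10 of the further genes rose and 3 fell, in a fit that called 36.5% of its 6197 genes. Among regulators of the mTORC1 kinase, which holds autophagy in check, Sesn1 and Ddit4 moved in opposite directions. Sesn2 (0.09), Deptor (-0.13) and Mtor itself (0.10) did not pass, and Rptor, Prkaa1 and Prkaa2 were not measured. Sesn1, for a sestrin that restrains mTORC1, read 9.68, 9.76 and 9.79 in TFEB-injected livers, against 9.35, 9.29 and 9.29 in not-injected livers. It rose by 0.44 ± 0.05 (limma adjusted p = 0.00136), and its 2 further probe sets gave 0.53 and 0.66. Ddit4, for a stress-induced inhibitor of mTORC1, read 8.07, 8.05 and 8.30 in TFEB-injected livers, against 8.66, 8.76 and 8.73 in not-injected livers. It fell by 0.58 ± 0.07 on the log2 scale (limma adjusted p = 0.00219), the largest fall among the measured pathway genes.

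The other 6 rises were in genes for receptors, late endosome proteins and a membrane protein. Ncoa4, for the receptor that delivers ferritin to lysosomes, read 11.85, 11.88 and 11.99 in TFEB-injected livers, against 11.55, 11.54 and 11.51 in not-injected livers (log2 change 0.37 ± 0.05; limma adjusted p = 0.00288). Fundc1, for a mitophagy receptor, rose by 0.25 ± 0.07, and Tollip, for a ubiquitin-binding adaptor, by 0.16 ± 0.04. Vps41, for a subunit of the HOPS tether at late endosomes and lysosomes, rose by 0.40 ± 0.08, and Rab7, for the GTPase that marks these membranes, by 0.21 ± 0.04. The further HOPS genes Vps11, Vps16, Vps18 and Vps39 did not pass (0.14, -0.05, 0.01 and -0.01). Nor did the receptor and adaptor genes Retreg1, Sec62, Ccpg1 and Wdfy3 (0.12, -0.05, 0.09 and 0.33). Ei24, for a membrane protein of the endoplasmic reticulum that autophagy needs, rose by 0.23 ± 0.05. Trp53inp2, for a protein that binds LC3 and GABARAP, fell by 0.24 ± 0.04 on the log2 scale. The fall of Wdr45b, given with its relatives, was the remaining call.

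The calls of Ei24, Fundc1, Tollip, Rab7 and Vps41 were not kept with every array left out, although their changes stayed positive. With 1 array left out these ran from 0.19 to 0.27 for Ei24, 0.19 to 0.30 for Fundc1, 0.15 to 0.18 for Tollip, 0.20 to 0.21 for Rab7 and 0.31 to 0.46 for Vps41. The 7 rises became 3 without TFEB-injected replicate 2, and 2, 4 and 4 without not-injected replicates 1, 2 and 3; in the same 4 fits the share of all genes called was 9.92%, 10.3%, 10.9% and 11.7%, against 17.9% with all arrays. Highest adjusted p-values in limma with an array left out were 0.0915 for Ei24, 0.138 for Fundc1, 0.145 for Tollip, 0.0601 for Rab7 and 0.0575 for Vps41. Without _s_at and _x_at probe sets the Vps41 change was 0.22 (limma adjusted p = 0.0896). With the mean of its 3 probe sets it was 0.24 (limma adjusted p = 0.0659), and the dimmest of them gave 0.10 ± 0.09. Calls for Sesn1, Ncoa4, Ddit4, Wdr45b and Trp53inp2 held without each of the 6 arrays.

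**Figure D4:**
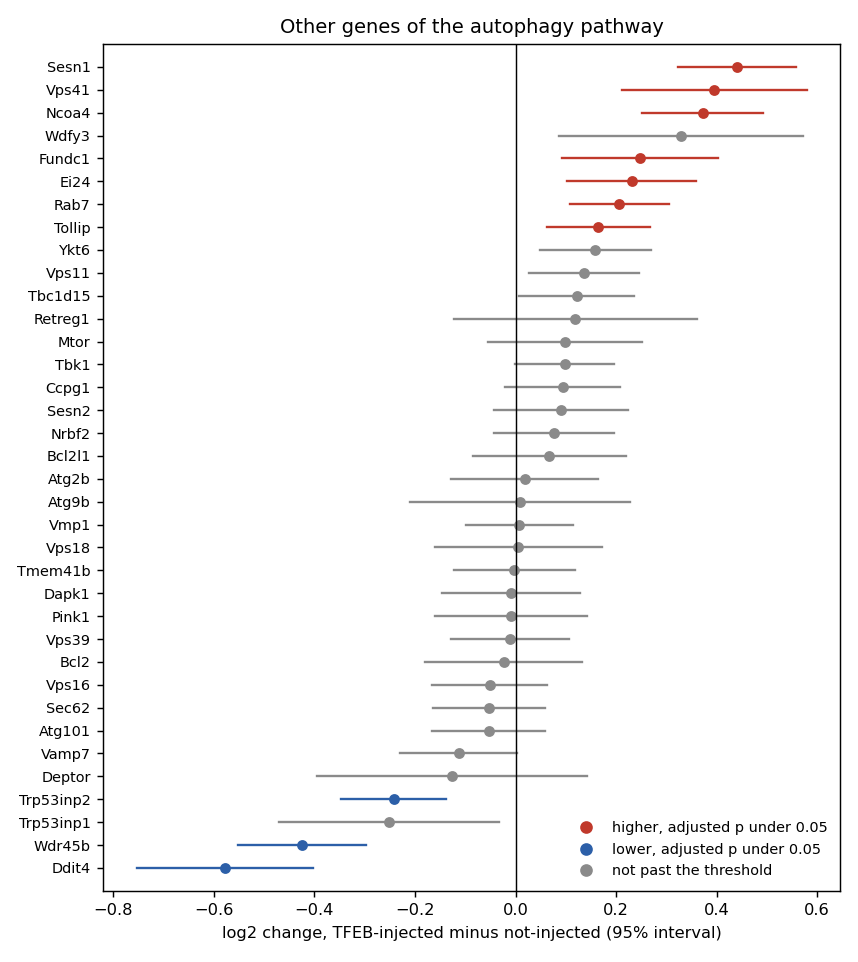
Log2 change (x axis, TFEB-injected minus not-injected, 95% interval) of 36 further genes of the autophagy pathway, ordered by change; 3 arrays per group. The 7 called rises lie between 0.16 and 0.44 and the 3 called falls between -0.58 and -0.24.

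Macrophage and Kupffer cell markers were also higher in the TFEB-injected livers, where 10 of 16 rose and 0 fell, with a median change of 0.44. Over all genes tested 9.99% rose and 7.92% fell. Their summed level, after returning log2 values to the linear scale, was 12129.6 to 14723.7 in TFEB-injected and 9478.1 to 9720.3 in not-injected livers, in array units. The values hold no detection calls, and the dimmest marker, Itgam, averaged 4.70 in TFEB-injected and 4.67 in not-injected livers on the log2 scale. Relative to the not-injected mean, the median marker stood at 0.57, 0.49 and 0.26 in TFEB-injected replicates 1, 2 and 3. In the same arrays Gabarapl1 stood at 1.16, 1.20 and 1.17, Map1lc3b at 0.38, 0.41 and 0.46, Gabarap at 0.17, 0.23 and 0.22, and Wipi1 at 0.36, 0.26 and 0.24. The part of these cells in the changes was not tested. Markers of other cell types went both ways. Of 10 endothelial markers 2 rose and 0 fell, with a median change of -0.02; they were Stab2 (1.42 ± 0.05) and Lyve1 (0.89 ± 0.07), both for hyaluronan-binding receptors. Of 9 stellate and fibroblast markers 2 rose, among them the collagen gene Col3a1 (0.32 ± 0.05), and 2 fell, with a median of -0.07. In cholangiocyte markers 1 of 5 fell, Sox9 (-0.33 ± 0.05), with a median of -0.16. In erythroid markers 1 of 5 fell, the heme synthesis gene Alas2 (-0.81 ± 0.07), with a median of -0.14. Of 10 lymphoid and neutrophil markers 2 rose and 0 fell, with a median of 0.05.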

How the data were processed

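Arrays of total liver RNA from 3 TFEB-injected and 3 not-injected Ppara KO mice were used, grouped by the labels. Per the submitters' processing notes, the authors made the deposited log2 values with the affy package's RMA (background correction, quantile normalization and summary per probe set), for which no versions are stated here. Such values hold no detection calls, and RMA compresses changes of dim genes. The number of arrays limits the precision.

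Of 22690 probe sets, 64 were controls. The platform annotation gave 20393 a single symbol, 691 several and 1606 none; 20364 of the single ones matched the RefSeq gene table by gene ID and 0 symbols changed. The 20380 non-control ones covered 12393 genes, fitted with limma 3.58.1 in R 4.3.3 (lmFit, eBayes, no covariates), adjusted by Benjamini-Hochberg over all genes; the script was tested on simulated data. All 39 genes were to be reported, with full values for called ones, and called pathway genes named. Members and lists were chosen with earlier results of these data known. Same-numbered arrays did not deviate together (correlations of 0.01, -0.13 and -0.11 for numbers 1, 2 and 3), so numbers were not used to pair mice. Alternatives covered probe set choice, normalization, filtering, variance model, array weights, replicate number, leaving out arrays and threshold. Figures used matplotlib 3.10.9 in Python 3.11.15.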

Additional observations from a re-analysis of the deposited data

How the results depend on the processing

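Gabarapl1, Map1lc3b and Atg16l1 kept their calls and directions under all 10 alternatives run and without each of the 6 arrays. Atg16l1 has a single probe set, outside the _s_at and _x_at classes. Averaging probe sets or leaving out those classes therefore could not alter its log2 change. Nor could leaving out those classes alter that of Map1lc3b, whose lead probe set is outside them. For every gene, the log2 change is also fixed without genes below the median level, with the intensity trend and robust prior and with the replicate block. The same holds with the stricter threshold and with every probe set tested. These settings could end a call but not turn a direction. The count of rises among the 35 genes, 4 as reported, stayed between 3 and 6 except with array weights, which gave 13; without 1 array it was 3 to 5. The count of falls, 2 as reported, was 4 with median centring, without genes below the median level and with an intensity trend and robust prior. It was 8 with array weights, and 1 with the mean of probe sets, with every probe set tested, with an adjusted p under 0.01 and with the replicate block; without 1 array it was 1 to 2. The array weights did not converge and gave TFEB-injected replicate 2 a weight of 16.3, and 47.2% of all genes were called with them. The replicate block, for numbers that the labels do not describe as pairs, lost Atg5 (limma adjusted p = 0.109) and Gabarap (limma adjusted p = 0.0768). Median centring added falls of Wipi2 and Bnip3. Among the 36 further pathway genes the 7 rises were 12 with array weights, 4 with the replicate block, 2 with an adjusted p under 0.01 and 2 to 6 without 1 array. The 3 falls were 5 with array weights and 3 to 4 without 1 array. The Tfeb change of 0.04, never called, was -0.088 with array weights and between -0.011 (without TFEB-injected replicate 3) and 0.10 without 1 array. The causes of these differences were not tested.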
